A study of Rattus norvegicus with 6 samples.

Results

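Heat shock proteins and related chaperones are described here through 10 rat genes, chosen by symbol, though with earlier results of these data known. They are Hspa1a, Hspa8, Hsph1, Hsp90aa1, Hsp90ab1, Hspb1, Hspd1, Hspe1, Hspa5 and Hsp90b1. Matching the RefSeq accession of each probe to these symbols found 22 of the 41012 gene probes on the array, and all 10 genes of the 8899 symbols matched. All 22 probes passed the filter on dim spots. Probes of 1 gene read the same RNA on the same arrays, so they are not replicates.

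Chaperones bind other proteins while these fold, move between compartments or unfold under stress. Those of the HSP70 and HSP90 families use ATP, and each compartment has its own: the cytosol, the mitochondria and the endoplasmic reticulum (ER), where secreted proteins such as collagen are folded. In the textbook heat shock response the transcription factor HSF1 binds repeats of a short sequence, the heat shock element, in the promoters of cytosolic and mitochondrial chaperone genes, while misfolding in the ER raises ER chaperones through a separate pathway, the unfolded protein response.

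Bone marrow cells of 8-week-old male rats were kept under osteogenic (bone-forming) culture conditions. The study compared 3 samples given low-intensity pulsed ultrasound (LIPUS), which delivers short bursts of sound waves to the cells, with 3 control samples given none, all taken on day 10. Total RNA of each sample was hybridised, as Cy3-labelled cRNA, to an Agilent rat array of 1 colour. No source used here gives the intensity of the LIPUS, its duration or the time from the last exposure to harvest. Nor do the labels state whether samples of a group came from separate animals or cultures, so p-values measure the spread between these samples alone, which may be technical.

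Levels below are log2 brightness of a probe after background correction, minus the 75th percentile of its array, so that 0 is the brightness of that percentile. Differences are LIPUS minus control on the log2 scale with the standard error (SE) of the limma fit, and a call means a p under 0.05 after Benjamini-Hochberg adjustment over all 23260 probes tested. Between 55.3% and 61.9% of probes were above background on the LIPUS arrays, and between 53.5% and 61.3% on the control arrays. From the tilt of the scanned grid, control 1 and control 2 appeared to lie on a slide apart from control 3 and the 3 LIPUS arrays, so control 3 is the only control that shares an inferred slide with LIPUS.

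The sequences upstream of the members were searched for a strict form of the element of each of the 2 stress pathways. RefSeq promoter windows of assembly GRCr8, from 250 bases before to 50 bases after the start of the gene, were found for 9 of the 10 members, with none for Hsp90aa1. Both strands were searched for the heat shock element, taken as the blocks GAA, TTC and GAA with any 2 bases between neighbouring blocks. It was present in 4 of the 9 windows (Hspa8, Hsph1, Hspd1 and Hspe1), and in 267 of all 33469 windows (0.798%). The ER stress response element, taken as CCAAT and CCACG with any 9 bases between them, was in 2 of the 9 windows, those of the ER chaperones Hspa5 and Hsp90b1, and in 22 of all windows (0.0657%). These matches describe letters and not binding. Elements with other letters or spacing were not searched for, so a window without a match may still hold one.

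The windows of 6 members are printed 5′ to 3′ on the strand of the gene, with matches in capitals. Hspa1a is shown because it is the only member with a called probe (chr20:3859506-3859805, plus strand), and its window holds no match to either set of letters, which says nothing of bases outside it.
Hspa1a: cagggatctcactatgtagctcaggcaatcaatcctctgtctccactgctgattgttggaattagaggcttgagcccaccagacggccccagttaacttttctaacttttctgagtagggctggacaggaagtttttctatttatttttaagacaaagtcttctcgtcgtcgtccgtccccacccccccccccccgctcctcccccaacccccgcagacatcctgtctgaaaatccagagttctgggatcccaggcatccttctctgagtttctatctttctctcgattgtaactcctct
Hspd1 (chr9:64083988-64084287, minus strand) and Hspe1 (chr9:64084077-64084376, plus strand) are shown because they lie head to head. Their windows overlap by 211 of 300 bases, and the 18 capital bases are the same stretch read from opposite strands, holding 2 overlapping heat shock elements.
Hspd1: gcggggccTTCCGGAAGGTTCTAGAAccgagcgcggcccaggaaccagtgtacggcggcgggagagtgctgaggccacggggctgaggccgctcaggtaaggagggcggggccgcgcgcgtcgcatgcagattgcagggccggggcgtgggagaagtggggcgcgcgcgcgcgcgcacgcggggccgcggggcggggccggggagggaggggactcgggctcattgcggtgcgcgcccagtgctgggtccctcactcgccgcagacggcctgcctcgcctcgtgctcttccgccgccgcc
Hspe1: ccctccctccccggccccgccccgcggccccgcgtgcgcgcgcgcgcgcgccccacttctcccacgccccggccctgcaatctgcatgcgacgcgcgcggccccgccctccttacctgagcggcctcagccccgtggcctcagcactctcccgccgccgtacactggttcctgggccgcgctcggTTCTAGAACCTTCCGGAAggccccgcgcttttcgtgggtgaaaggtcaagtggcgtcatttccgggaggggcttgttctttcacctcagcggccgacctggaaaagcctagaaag
Hspa8 (chr8:50080264-50080563, plus strand) is shown as the cytosolic HSP70 gene whose window matched the heat shock element. The matches begin 213 and 55 bases before its start.
Hspa8: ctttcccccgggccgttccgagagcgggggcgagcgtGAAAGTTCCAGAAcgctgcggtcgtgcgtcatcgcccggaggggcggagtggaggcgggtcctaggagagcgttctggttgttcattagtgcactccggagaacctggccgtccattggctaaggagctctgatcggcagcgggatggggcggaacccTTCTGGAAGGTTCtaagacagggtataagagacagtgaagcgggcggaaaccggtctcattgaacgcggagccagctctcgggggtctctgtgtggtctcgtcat
Hspa5 (chr3:38452766-38453065, plus strand) and Hsp90b1 (chr7:23012244-23012543, minus strand) hold matches to the ER stress response element, 1 in Hspa5 and 2 in Hsp90b1.
Hspa5: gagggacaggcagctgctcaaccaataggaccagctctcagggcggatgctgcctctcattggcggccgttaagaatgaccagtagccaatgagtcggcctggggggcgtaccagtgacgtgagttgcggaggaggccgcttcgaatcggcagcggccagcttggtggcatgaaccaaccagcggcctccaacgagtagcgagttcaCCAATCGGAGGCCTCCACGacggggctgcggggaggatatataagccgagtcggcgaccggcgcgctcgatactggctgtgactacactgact
Hsp90b1: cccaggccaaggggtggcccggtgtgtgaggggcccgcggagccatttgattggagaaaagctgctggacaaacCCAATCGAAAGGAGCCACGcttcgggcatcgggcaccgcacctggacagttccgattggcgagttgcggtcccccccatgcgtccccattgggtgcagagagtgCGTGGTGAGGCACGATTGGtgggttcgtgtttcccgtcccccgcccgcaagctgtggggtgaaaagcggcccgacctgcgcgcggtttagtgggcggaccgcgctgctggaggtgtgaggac

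Of the 10 chaperone genes, Hspa1a was the only one with a called probe, which was lower in LIPUS cells. That call was lost in 8 of 20 alternative settings. The other Hspa1a probe had the opposite sign without being called (0.63, 95% interval 0.13 to 1.13). It is a dim spot, above background on 3 LIPUS arrays but on only 1 control array. In the authors' value table its difference was 0.054 ± 1.01. A probe of Hspd1 was lower with an interval that leaves out 0 (−0.47, −0.87 to −0.066) and was not called either. Over the 22 probes 1 was called (4.55%), against 6.51% of all probes tested (3.65% lower and 2.86% higher in LIPUS cells), so the share among the chaperones was near the background. The median difference over the 22 probes was 0.034, and it was 0.037 over all 23260 probes. Of the 22 probes, 12 were above 0 and 10 below. The groups did not overlap on 3 member probes (13.6%), against 27.2% of all probes tested. An unadjusted p under 0.05 was reached by 3 member probes, and by 22.1% of all probes.

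**Figure D1:**
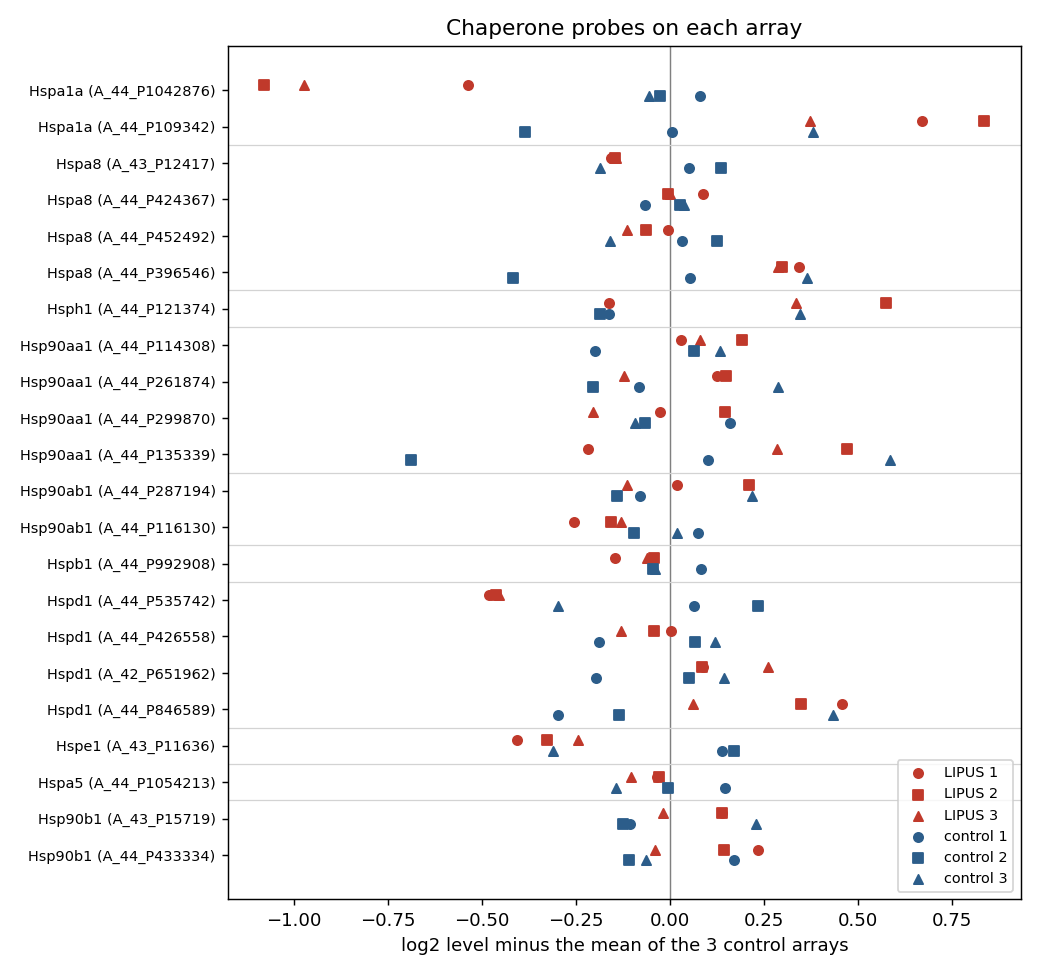
Log2 level of each of the 22 chaperone probes, minus the mean of its 3 control arrays (horizontal axis, log2 units), 1 row a probe. Each point is 1 array, in red for LIPUS (upper in the row) and blue for control (lower), with a shape for each replicate number. In the top row, the Hspa1a probe with 10 spots, the 3 LIPUS arrays lie left of all controls, and on 3 of the 22 rows in all the groups do not overlap.

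Hspa1a (NM_031971) encodes the stress-inducible HSP70 of the cytosol, which is low in unstressed cells and is made in large amounts after heat or protein damage. Its probe A_44_P1042876, which is printed on 10 spots of each array, had levels of −0.47, −1.01 and −0.91 in LIPUS cells, against 0.15, 0.038 and 0.010 in control cells. The mean spot brightness was 558, 292 and 359 on the LIPUS arrays and 1003, 742 and 1018 on the control arrays. All 3 LIPUS arrays were below all 3 control arrays, and the control arrays lay closer together than the LIPUS arrays. The mean was −0.80 ± 0.29 in LIPUS cells and 0.065 ± 0.072 in control cells (SD, n = 3 each). The difference was −0.86 ± 0.18 (SE; limma adjusted p = 0.0235), a 1.82-fold lower signal, with a 95% interval of −1.27 to −0.45. By unadjusted p it ranked 906 of 23260 probes. An exact permutation test of the 6 array values gave p = 0.1, two-sided, the smallest that 3 against 3 arrays allow. In RNA of mixed cells, fewer cells of a type and less RNA per cell cannot be told apart.

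The 10 spots of this probe on each array show the spread within an array. On LIPUS 1 the spots ran from −0.85 through a median of −0.50 to −0.14, on LIPUS 2 from −1.39 through −1.04 to −0.61, and on LIPUS 3 from −1.78 through −0.96 to −0.31. On control 1 they ran from −0.32 through 0.18 to 0.52, on control 2 from −0.47 through 0.062 to 0.46, and on control 3 from −0.51 through 0.078 to 0.40. Single spots of the groups overlapped, whereas every LIPUS median lay below every control median. Spots of an array are repeats of 1 labelled RNA and were averaged before the fit.

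**Figure D2:**
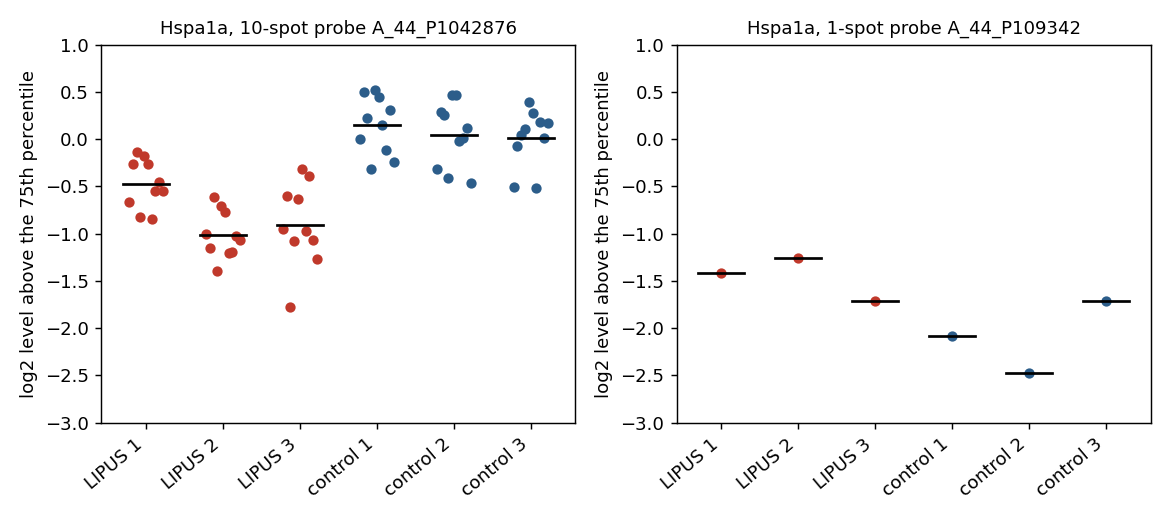
Log2 level of every spot of the 2 Hspa1a probes on each array, LIPUS arrays left of control arrays, with the mean of the spots as a bar. The 10 spots of A_44_P1042876 have medians of −1.04 to −0.50 on LIPUS arrays and 0.062 to 0.18 on control arrays, while the single spot of A_44_P109342 runs the other way.

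The second Hspa1a probe, A_44_P109342, is a single dim spot and had the opposite sign. Its levels were −1.42, −1.25 and −1.72 in LIPUS cells, against −2.09, −2.48 and −1.71 in control cells. It was above background on all 3 LIPUS arrays but, among controls, only on control 3, whose value was slightly above that of LIPUS 3. The difference of 0.63 ± 0.22 was not called (limma adjusted p = 0.134, unadjusted p = 0.0187). In the authors' value table the same probe differed by 0.054 ± 1.01 (limma adjusted p = 0.983). The other probe differed there by −0.93 ± 0.21 with the groups apart, and was not called either (limma adjusted p = 0.0685). The Hspa1a call therefore rests on 1 of 2 probes and on the spot tables. No probe was matched to Hspa1b, a near-identical copy of Hspa1a, and the signal of the 2 genes may be shared.

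The Hspa1a fall had nearly the same size within the inferred slide, where the LIPUS mean was 0.81 below control 3, as against control 1 and control 2 (−0.89). With the slide as a fixed block, which leaves control 3 as the only control beside LIPUS, the probe was not called (limma adjusted p = 0.188), and 1.24% of all probes tested were. The call was also lost without LIPUS 2 (0.0956), LIPUS 3 (0.0880), control 1 (0.0923) or control 2 (0.0668), each an adjusted p of the limma fit over the arrays that were left.

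The levels most like those of this Hspa1a probe over the 6 arrays, among probes of other symbols, were those of Rap1a, which encodes a small GTPase (Pearson r = 0.999), Slc11a2, an iron transporter gene (r = 0.996), and Entpd1, which encodes the ectonucleotidase CD39 (r = 0.994). Their differences were −0.55 ± 0.16, −0.54 ± 0.17 and −1.14 ± 0.20, and the Entpd1 difference was called (limma adjusted p = 0.0108). These correlations over 6 arrays are a description, and arrays of 2 groups raise the r of any pair of probes that differ between the groups.

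Hspa8 (NM_024351) encodes the constitutive HSP70 of the cytosol, which folds new proteins and strips clathrin from vesicles. Its 3 bright probes showed no difference that passed the test. Probe A_44_P452492 had 6.10, 6.05 and 5.996 in LIPUS cells, against 6.14, 6.23 and 5.95 in control cells, a difference of −0.061 ± 0.16 (limma adjusted p = 0.859). On control 1 its brightness reached the scanner limit of 65535, so that value is a lower bound. Probe A_43_P12417 had 5.85, 5.86 and 5.86 in LIPUS cells, against 6.06, 6.14 and 5.82 in control cells (−0.15 ± 0.16, limma adjusted p = 0.628). No pixel of it was at the limit on LIPUS arrays, against 20%, 3% and 33% on the control arrays. Its median brightness stayed below the limit on each control (61866, 53530 and 58878). Probe A_44_P424367, with no pixel at the limit, had 5.11, 5.02 and 5.02 in LIPUS cells, against 4.95, 5.05 and 5.06 in control cells. Its difference of 0.028 ± 0.15 had a 95% interval of −0.31 to 0.37 (limma adjusted p = 0.934). The groups overlapped on each of these probes.

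The dimmest Hspa8 probe, A_44_P396546, had 1.09, 1.04 and 1.03 in LIPUS cells, against 0.80, 0.33 and 1.11 in control cells. Control 3 lay above all LIPUS arrays and the other controls below them, and the difference of 0.31 ± 0.21 was not called (limma adjusted p = 0.424). Hsph1 (NM_001011901) encodes HSP105, a large HSP70 relative that exchanges the nucleotide of HSP70. Its only probe had −1.74, −0.999 and −1.24 in LIPUS cells, against −1.74, −1.76 and −1.23 in control cells. LIPUS 1 was as low as control 1 and control 2, and the difference of 0.25 ± 0.23 was not called (limma adjusted p = 0.565). Its heat shock element begins 36 bases before the start.

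Hsp90aa1 (NM_175761) and Hsp90ab1 (NM_001004082) encode the stress-inducible and the constitutive HSP90 of the cytosol, which hold kinases and steroid receptors in an active shape. The brightest Hsp90aa1 probe, A_44_P261874, had 5.42, 5.45 and 5.18 in LIPUS cells, against 5.22, 5.09 and 5.58 in control cells. Control 3 had the highest value and control 2 the lowest, and the difference was 0.051 ± 0.18 (limma adjusted p = 0.902). Probe A_44_P135339 had 0.75, 1.44 and 1.25 in LIPUS cells, against 1.07, 0.28 and 1.55 in control cells, again with control 3 highest and control 2 lowest (0.18 ± 0.31, limma adjusted p = 0.776).

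The other Hsp90aa1 probes gave differences as small. Probe A_44_P299870 had 3.01, 3.18 and 2.83 in LIPUS cells, against 3.19, 2.96 and 2.94 in control cells (−0.027 ± 0.17, limma adjusted p = 0.946). Probe A_44_P114308 had 0.29, 0.45 and 0.34 in LIPUS cells, against 0.058, 0.32 and 0.39 in control cells (0.10 ± 0.16, limma adjusted p = 0.764). The groups overlapped on all 4 Hsp90aa1 probes.

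Hsp90ab1 probe A_44_P287194 had 4.67, 4.86 and 4.53 in LIPUS cells, against 4.57, 4.51 and 4.87 in control cells (0.039 ± 0.17, limma adjusted p = 0.924). In the authors' value table the same probe differed by −0.28, so its sign depended on the source. Probe A_44_P116130 had 3.80, 3.90 and 3.92 in LIPUS cells, against 4.13, 3.96 and 4.07 in control cells. Here all LIPUS arrays were below all control arrays, yet the difference of −0.18 ± 0.15 was not called (limma adjusted p = 0.529).

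Hspb1 (NM_031970) encodes HSP27, a small heat shock protein that needs no ATP, holds unfolded proteins in solution and binds actin filaments. Its probe is printed on 10 spots and had 4.49, 4.60 and 4.58 in LIPUS cells, against 4.72, 4.59 and 4.60 in control cells. LIPUS 1 lay below all controls and control 1 above all LIPUS arrays, and the other 4 arrays were close together. The difference was −0.083 ± 0.15 (limma adjusted p = 0.790). The 95% interval was −0.42 to 0.26.

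Hspd1 (NM_022229) and Hspe1 (NM_012966) encode HSP60 and HSP10, which form the folding chamber of the mitochondrial matrix. Their brightest probes were both lower in mean in LIPUS cells, without passing the test. Hspd1 probe A_44_P535742 had 4.77, 4.79 and 4.80 in LIPUS cells, against 5.32, 5.49 and 4.96 in control cells. The LIPUS arrays lay within a narrow range below all controls, and control 3 was the control nearest to them. The difference was −0.47 ± 0.18, with a 95% interval of −0.87 to −0.066 (limma adjusted p = 0.162, unadjusted p = 0.0267). Without control 3 it was −0.62 and was called (limma adjusted p = 0.0439), while against control 3 alone it was −0.17.

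Hspe1 probe A_43_P11636 had 5.60, 5.67 and 5.76 in LIPUS cells, against 6.14, 6.17 and 5.69 in control cells. Control 1 and control 2 lay above all LIPUS arrays, and control 3 lay among them. The difference was −0.33 ± 0.18 (limma adjusted p = 0.331), with −0.48 against control 1 and control 2 and −0.014 against control 3. Between 0% and 1% of its pixels were at the scanner limit on LIPUS arrays, against 85%, 15% and 27% on the control arrays, and control 1 as a whole was at the limit. The control 1 level is therefore a lower bound, while the median brightness of control 2 (54345) and control 3 (53836) was below the limit. Spot-table differences of Hspe1 that include control 1 may understate how much lower the LIPUS signal was. In the authors' value table it differed by −0.48 ± 0.20 with the groups apart (limma adjusted p = 0.234).

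The other Hspd1 probes had no common sign. Probe A_44_P426558 had 2.50, 2.46 and 2.37 in LIPUS cells, against 2.31, 2.57 and 2.62 in control cells (−0.056 ± 0.16, limma adjusted p = 0.875). Probe A_42_P651962 had 2.98, 2.97 and 3.15 in LIPUS cells, against 2.69, 2.94 and 3.03 in control cells (0.15 ± 0.17, limma adjusted p = 0.649). Probe A_44_P846589 had 2.01, 1.90 and 1.61 in LIPUS cells, against 1.25, 1.41 and 1.98 in control cells (0.29 ± 0.22, limma adjusted p = 0.470). On the last of these control 3 was again set apart from the other controls, this time upwards.

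Hspa5 (NM_013083) encodes BiP, the HSP70 of the ER and the usual readout of ER stress. Its probe had 5.53, 5.54 and 5.47 in LIPUS cells, against 5.72, 5.56 and 5.43 in control cells. The LIPUS arrays lay between the controls, and the difference was −0.056 ± 0.16, with a 95% interval of −0.41 to 0.30 (limma adjusted p = 0.872). No pixel was at the scanner limit on the LIPUS arrays, against 8%, 1% and 8% on the control arrays.

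Hsp90b1 (NM_001012197) encodes GRP94, the HSP90 of the ER, which folds integrins and toll-like receptors. Probe A_43_P15719 had 3.60, 3.60 and 3.44 in LIPUS cells, against 3.36, 3.34 and 3.69 in control cells (0.086 ± 0.17, limma adjusted p = 0.807). Probe A_44_P433334 had 1.80, 1.71 and 1.53 in LIPUS cells, against 1.74, 1.46 and 1.495 in control cells (0.11 ± 0.17, limma adjusted p = 0.731). The groups overlapped on both. Hspa5 and Hsp90b1, which share the ER stress response element, thus both had intervals that span 0.

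**Figure D3:**
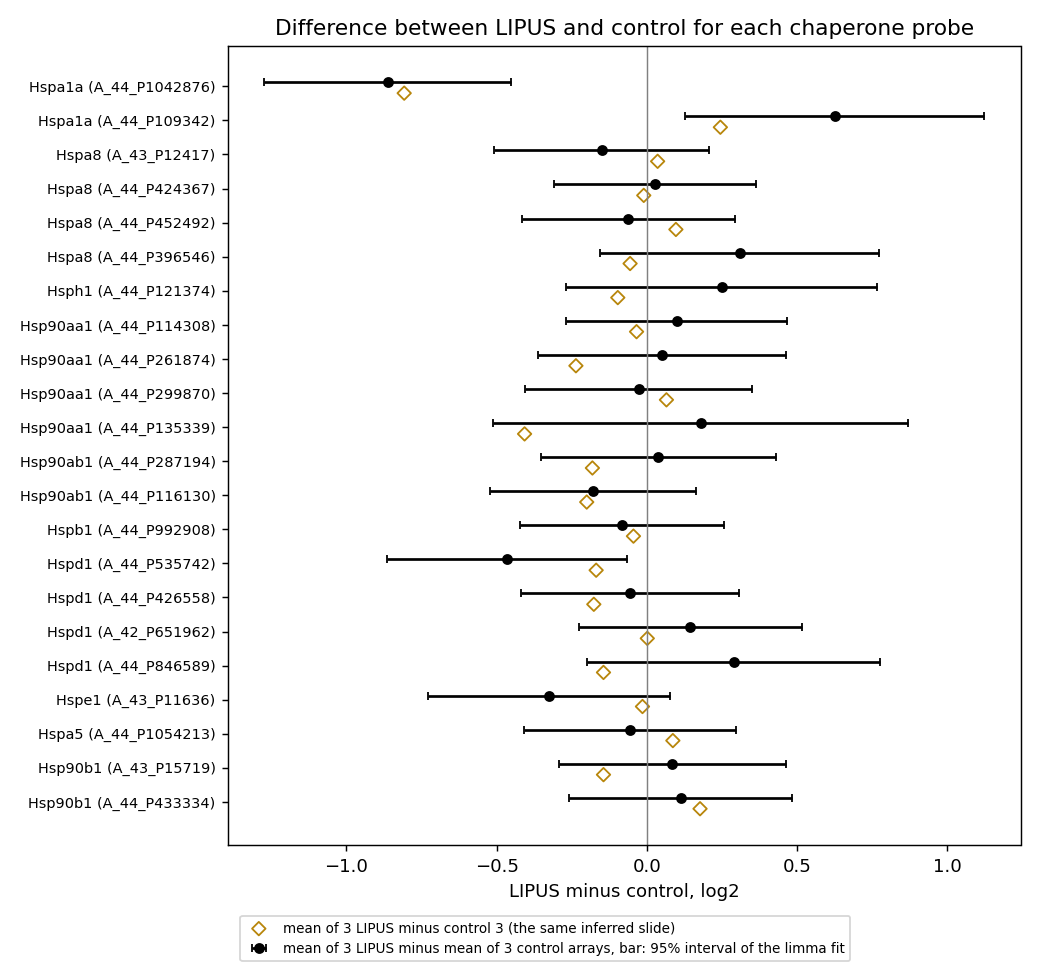
Difference of each chaperone probe on the log2 scale (horizontal axis). Black points are LIPUS minus control with the 95% interval as a bar, and open diamonds are the LIPUS mean minus control 3 alone. The intervals of 19 of the 22 probes span 0, and the Hspa1a probe with 10 spots is at −0.86 by the first measure and −0.81 by the second.

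On 16 of the 22 probes the gap between control 3 and the mean of control 1 and control 2 was larger than the difference between LIPUS and control (72.7%, against 54.7% of all probes tested). A gap of 1 array against 2 has more spread than a difference of 3 against 3, so the share of the members is read beside that of all probes. With control 3 alone in place of the controls the sign was turned on 13 of the 22 probes (59.1%), against 23.5% of all probes tested. None of these shares was tested. In the authors' value table limma called none of the 22 probes, against 3.67% of all probes, with 2 at an unadjusted p under 0.05, and 6 had groups that did not overlap (27.3%), against 28.6% of all probes.

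Other listed genes of the same pathways were read from the same fit, in which 6.51% of all probes were called, so few or no calls are near the background for lists of 4 to 18 measured genes. An unadjusted p under 0.05 in limma was reached by 22.1% of all probes, and the median difference of all probes was 0.037. Of the other HSP70 and HSP110 genes 5 of 11 were measured and none was called, with 2 at an unadjusted p under 0.05. Hspa2, a testis-enriched HSP70, differed by 0.68 ± 0.19 (limma adjusted p = 0.0693), and Hspa4, an HSP110 relative, by −0.60 ± 0.21 (limma adjusted p = 0.130). The groups did not overlap for either gene. Of the other small heat shock proteins 4 of 9 were measured and none was called, with 1 at an unadjusted p under 0.05. Their median difference was −0.37, with −0.55 ± 0.22 for Cryab, which encodes alpha-B crystallin (limma adjusted p = 0.176), and −0.33 ± 0.15 for Hspb6 (limma adjusted p = 0.237).

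J-domain proteins and nucleotide exchange factors, which drive the ATP cycle of HSP70, and other HSP70 partners were measured for 14 of 19 genes. None was called and 1 had an unadjusted p under 0.05. Their median was 0.14, and −0.21 when arrays were scaled to spike-in spots, which lowered the median of all probes to −0.31. Stub1, a ubiquitin ligase that works with HSP70, differed by 0.40 (limma adjusted p = 0.210) and St13, which stabilises HSP70 with ADP, by −0.35 (limma adjusted p = 0.246). Co-chaperones of HSP90 were measured for 10 of 16 genes and none was called, with 2 at an unadjusted p under 0.05. Their median was 0.20 (−0.15 under spike-in scaling), with 0.46 for Stip1, which links HSP70 to HSP90 (limma adjusted p = 0.212), and 0.49 for Fkbp8 (limma adjusted p = 0.218).

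The cytosolic chaperonin TRiC and prefoldin, which fold actin and tubulin, were measured for 7 of 14 genes, with none called and 0 at an unadjusted p under 0.05. Cct6a differed by 0.34 (limma adjusted p = 0.306), while Cct3 reached the scanner limit on all 6 arrays and gives no difference. Mitochondrial chaperones and proteases were measured for 6 of 13 genes, with none called, 0 at an unadjusted p under 0.05 and a median of 0.0086 (−0.34 under spike-in scaling). Lonp1, a matrix protease gene, differed by −0.30 (limma adjusted p = 0.327) and Grpel1, a partner of mitochondrial HSP70, by −0.15 (limma adjusted p = 0.623). Heat shock factors and partners of HSF1 were measured for 4 of 8 genes, again with none called and 0 at an unadjusted p under 0.05. No probe was matched to Hsf1 itself, nor to Dnajb1 among the J-domain genes. Daxx differed by 0.35 (limma adjusted p = 0.262) and Crebbp by 0.29 (limma adjusted p = 0.320).

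ER chaperones and folding enzymes were measured for 18 of 24 genes, of which 1 rose and none fell (median 0.14, and −0.21 under spike-in scaling). Fkbp10 (NM_001014120), a prolyl isomerase of the ER that assists collagen folding, had 4.01, 3.81 and 3.76 in LIPUS cells, against 2.45, 2.47 and 2.97 in control cells. All LIPUS arrays were above all controls, and the difference was 1.23 ± 0.19 (limma adjusted p = 0.00546). With the slide as a fixed block it was 0.89 and not called (limma adjusted p = 0.0888). Other collagen folding genes did not pass. Serpinh1, which encodes the collagen chaperone HSP47, differed by 0.51 ± 0.16 (limma adjusted p = 0.0940). LIPUS 1 and LIPUS 3 were at the scanner limit for Serpinh1 and no control was, so its difference may be understated. P4hb differed by 0.38 (limma adjusted p = 0.184) and Ppib by 0.32 (limma adjusted p = 0.259).

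Among 10 measured of 18 listed genes of the unfolded protein response, 1 rose, 2 fell and 7 did not pass, with a median difference of −0.13. The share called was 30%, against 6.51% of all probes tested. The list was chosen with earlier results of these data known, so this share is a description. No probe was matched to Ern1, Atf6, Xbp1 or Edem1, so these genes of the response were not read. The 2 genes that fell lie on the branch that responds to amino acid shortage as well as to ER stress. Trib3 (NM_144755), a pseudokinase gene induced by ATF4 and CHOP, had 3.28, 3.44 and 3.63 in LIPUS cells, against 5.79, 5.84 and 5.26 in control cells (−2.18 ± 0.20, limma adjusted p = 0.000607). Ddit3 (NM_024134), which encodes CHOP, had 1.28, 1.39 and 1.21 in LIPUS cells, against 2.19, 2.19 and 2.31 in control cells (−0.94 ± 0.15, limma adjusted p = 0.00729). The groups were well apart for both genes. Atf4, on the same branch, differed by −0.12 ± 0.15 (limma adjusted p = 0.694), also with all LIPUS arrays below all controls. Groups that did not overlap were found on 27.2% of all probes tested. Hspa5 differed by −0.056, with groups that overlapped.

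Selenos (NM_173120), a selenoprotein of ER-associated degradation, had 4.03, 4.07 and 3.71 in LIPUS cells, against 3.22, 3.04 and 3.44 in control cells. Its difference of 0.71 ± 0.18 was just past the threshold (limma adjusted p = 0.0494), and the call was lost in 17 of 20 alternative settings. Derl1, of the same degradation pathway, differed by 0.39 (limma adjusted p = 0.170). With the slide as a fixed block the Ddit3 difference was −1.02, no smaller than before, with an adjusted p of 0.0565 in limma, and the Trib3 difference was −1.82 and still called (limma adjusted p = 0.0268).

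**Figure D4:**
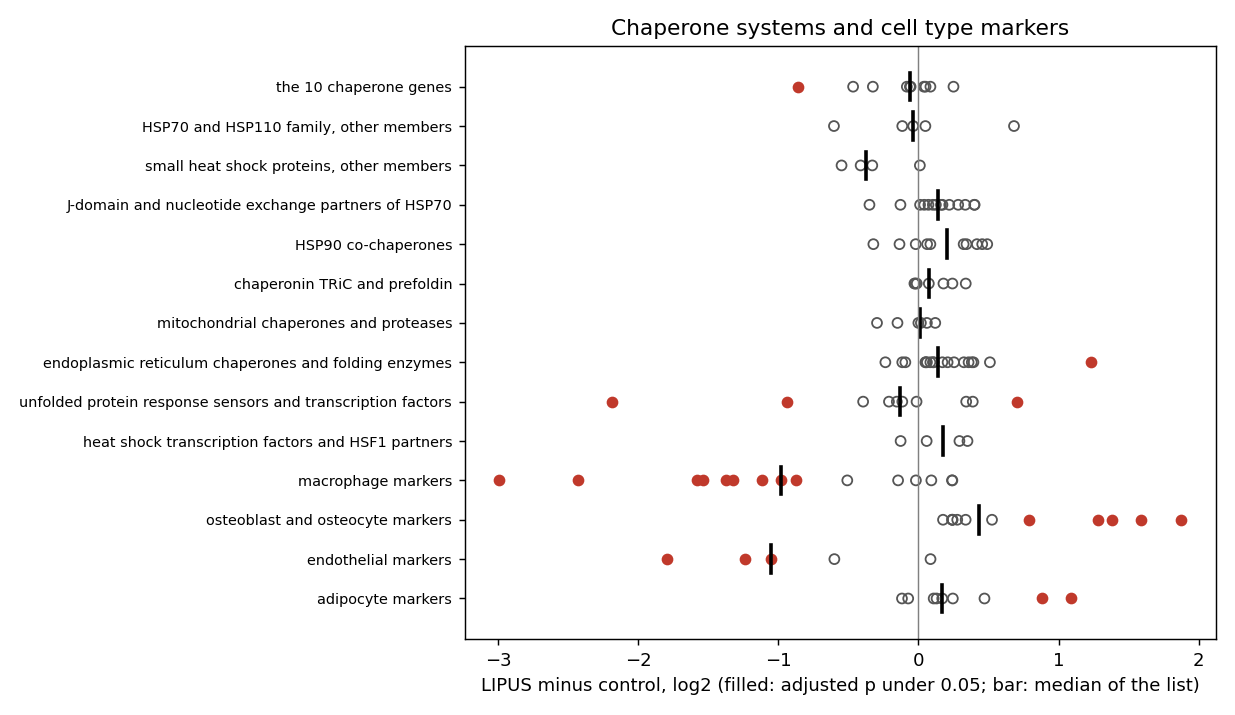
Difference of each measured gene, LIPUS minus control, on the log2 scale for the 10 chaperone genes and each other list, 1 point a gene, with the list median as a bar and called genes filled. Genes at the scanner limit on all 6 arrays, Cct3 among them, are plotted but show the scaling alone. Hspa1a is the only called gene in the row of the 10 chaperones, Fkbp10 the only one among the ER chaperones, and Trib3, Ddit3 and Selenos the 3 of the unfolded protein response.

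Listed markers of several cell types differed between the groups, in a fit that called 6.51% of all probes tested. The lists were chosen with earlier results of these data known, so their counts are a description. Of 15 measured macrophage markers 9 fell and none rose (median difference −0.98), and the mean level of the list was 3.32 to 3.53 on LIPUS arrays, against 4.40 to 4.44 on control arrays. All 15 were above background on every array, and C1qb and Lyz2 reached the scanner limit on each of the 6 arrays. Cd68 and Laptm5 reached it on every control array, and C1qa on all arrays but LIPUS 2, so their differences are limited by the scanner. Of 12 measured osteoblast markers, of which Spp1, Bglap, Col1a2 and Sparc reached that limit on every array, 5 rose and none fell (median 0.43), with list means of 4.53 to 4.70 on LIPUS arrays, against 3.78 to 3.91 on control arrays. The differences of Spp1, Bglap, Col1a2 and Sparc, 0.24 to 0.28, show largely the scaling of the arrays. They still enter that median and those means. Of 5 measured endothelial markers 3 fell (median −1.05), with list means of −1.04 to −0.91 on LIPUS arrays, against −0.15 to 0.0059 on control arrays, and of 9 adipocyte markers 2 rose. Among the osteoblast markers that rose, Mepe reached the scanner limit on every LIPUS array. The part of the marker shifts in the fall of Hspa1a, Trib3 and Ddit3 or in the rise of Fkbp10 was not tested.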

How the data were processed

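The deposited spot tables hold, per the file headers, the intensity of each spot and its local background, the percent of its pixels at the scanner limit, and position and quality as a score. They are not normalized. The value table deposited by the authors appears to be on a log2 scale with the 75th percentile of each array at 0, judged from its values; how it was made is not given in the sources used here. It served as an alternative.

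Spot medians were background-corrected with limma's normexp (offset 50), put on the log2 scale, averaged over the spots of a probe and set to the array's 75th percentile. The plan had assumed a processed signal and a background flag, which these tables lack. A probe counted as above background when its median minus local background passed 95% of the array's 153 negative control spots, and probes above it on at least 3 of 6 arrays were tested (23260), each on its own. LIPUS was compared with control by lmFit and eBayes (limma 3.58.1, R 4.3.3), two-sided. Symbols came from RefSeq accessions (GRCr8). The number of arrays limits the precision.

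All probes of the members are named, and of every other list up to 4 measured genes with the smallest unadjusted p, of which the text gives up to 2 where none was called. Atf4 was added after its value was seen. For these lists and for markers the probe of highest mean stands for the gene. The members and lists were chosen with earlier results of these data known. The slide was inferred from the tilt of the grid, 0.0925 and 0.0943 scan units per column on control 1 and control 2, against 0.0522 to 0.0601 on the other arrays. Scalings, corrections, filters, slide, replicate block and left-out arrays were tried as alternatives. The fit was tested on simulated data.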

Additional observations from a re-analysis of the deposited data

How the results depend on the processing

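Main values were 1515 probes called, 1 member probe, 1 member gene and a median of −0.058 over the member genes; 20 alternatives were run. Without 1 array at a time there were 670 to 2288 probes called, 0 to 2 member probes and genes, and medians of −0.11 to −0.021. The member count was 0 without LIPUS 2, LIPUS 3, control 1 or control 2, and 2 without control 3. No dim-probe filter gave 686 probes and 0 members, use of the authors' processed values 854 probes, 0 members and a median of −0.15, the slide as a fixed block 289 probes, 0 members and −0.12, and slide 2 alone, chosen after seeing the data, 0 probes (3527 at an unadjusted p under 0.05), 0 members (1 at that level) and −0.12. Scaling to 5 spike-in probes gave 3910 probes, 3 member probes and genes (Hspa1a, Hspd1 at −0.82 and Hspe1 at −0.68) and a median of −0.41, as it moved the median of all probes to −0.31. The median was −0.12 with median centring, −0.011 with quantile normalization, −0.0084 without probes at the scanner limit and −0.022 with the slide as a random block. The share of called probes that were higher was 44.0%, 32.4% with median centring, 5.27% after spike-in scaling and 35.8% with the authors' values. Same-numbered samples did not deviate together (r of 0.00075, 0.0082 and −0.015), and differently numbered samples gave r of −0.017 to 0.017. The labels do not state a pairing, and these r cannot settle it. The replicate block gave 1241 calls and 1 member. The Hspa1a probe with 10 spots stayed below 0 in all 20 (−1.21 to −0.75) and was called in 12.

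Alternatives were run for the member probes and the listed pathway genes given with a difference, but not for Rap1a, Slc11a2, Entpd1 or Atf4. Signs turned only for uncalled genes among those run. Median centring gave −0.028 for Hspa8 A_44_P424367, −0.0058 for Hsp90aa1 A_44_P261874 and −0.018 for Hsp90ab1 A_44_P287194. Quantile normalization gave 0.010 and no background subtraction 0.0021 for Hsp90aa1 A_44_P299870. Spike-in scaling gave −0.32 and −0.041 for Hspa8 A_44_P424367 and A_44_P396546, −0.10 for Hsph1, −0.25, −0.30 and −0.17 for Hsp90aa1 A_44_P114308, A_44_P261874 and A_44_P135339, −0.31 for Hsp90ab1 A_44_P287194, −0.21 and −0.062 for Hspd1 A_42_P651962 and A_44_P846589, −0.27 and −0.24 for Hsp90b1 A_43_P15719 and A_44_P433334, −0.013 for Cct6a, −0.11 for Cct3 (at the scanner limit on all 6 arrays, so this is the change of scale alone), −0.027 for Ppib, −0.00076 for Daxx and −0.058 for Crebbp. The value table gave −0.15 for Hsp90aa1 A_44_P135339, −0.28 for Hsp90ab1 A_44_P287194 and 0.032 for Hspb6. The slide as a fixed block and slide 2 alone both gave 0.036, −0.0097, 0.097 and −0.055 for Hspa8 A_43_P12417, A_44_P424367, A_44_P452492 and A_44_P396546, −0.096 for Hsph1, −0.034, −0.24, 0.066 and −0.41 for Hsp90aa1 A_44_P114308, A_44_P261874, A_44_P299870 and A_44_P135339, −0.18 for Hsp90ab1 A_44_P287194, −0.14 for Hspd1 A_44_P846589, 0.087 for Hspa5 and −0.14 for Hsp90b1 A_43_P15719. The random block gave −0.024 for Hsp90aa1 A_44_P261874 and −0.018 for Hsp90ab1 A_44_P287194. Without 1 array the ranges were −0.16 to 0.47, −0.051 to 0.19 and −0.11 to 0.061 for Hsp90aa1 A_44_P135339, A_44_P261874 and A_44_P299870, −0.047 to 0.15 for Hsp90ab1 A_44_P287194, −0.13 to 0.018 for Hspa5, −0.0046 to 0.048 and −0.14 to 0.0018 for Hspa8 A_44_P424367 and A_44_P452492, and −0.15 to 0.0046 for Hspd1 A_44_P426558. The cause was not tested for any of these.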
